A study of Magallana gigas with 6 samples.

Results

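A set of 81 genes differed at least 8-fold between the pooled mantle RNA of 2 oyster groups, with 53 genes higher in the high EPA+DHA group and 28 higher in the low EPA+DHA group. They were taken from the 30342 gene rows of the count table whose identifiers start with Cg, out of 34871 rows in all. They were selected on CPM, the reads of a gene divided by the total of its library and multiplied by 1000000. A gene had to average under 1000 CPM over the 6 libraries, to reach at least 2 CPM in every library of 1 group, to lie above every library of the other group there, and to have a group mean at least 8 times the other. Genes numbered Cg28971 to Cg29032 and genes whose low library 3 was at least 4 times each other library were left out. The gap between the groups is therefore a condition of membership, and the folds and levels below describe it without a test. By this rule 0.175% of Cg rows were higher in the high group and 0.0923% were higher in the low group.

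The animals were F2 hybrids, 11 months old, that descend from females of Crassostrea angulata crossed with males of Crassostrea gigas, and every library holds mantle RNA. The first group is the high EPA+DHA group, RNA of 40 F2 oysters from the upper extreme of EPA+DHA content mixed in equal amounts and represented by 3 libraries. The second is the low EPA+DHA group, RNA of 40 oysters from the lower extreme, also with 3 libraries. The series describes the 3 libraries of a group as technical replicates of 1 mix, so an SD with n = 3 below is the spread between libraries and not between oysters. Totals were 9788187 to 10250561 reads in high and 11703483 to 12751690 reads in low libraries, so that 2 CPM stands for 19.6 to 25.5 reads. Low library 3 stood apart from the others. In it 53.2% of Cg genes lay below every high library, against 25.4% in low library 1 and 21.6% in low library 2. Where a fold of group means is printed for a named gene and this library moves it by over 1.5 times, both values are given. The table pairs no identifier with a product name, and 0 of the 81 identifiers matched the RefSeq gene table. The genes therefore go by identifier, and neither their functions nor the markers of mantle could be looked up.

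The mantle is the sheet of tissue that lines the oyster's shell, lays down shell material and holds storage tissue. EPA and DHA are long-chain omega-3 fatty acids that oysters take mainly from the microalgae they filter and incorporate into membrane lipids. Oyster genomes are known for high heterozygosity and for gene families that grew by duplication in tandem, so close copies can share reads. A pool adds up all its animals: a gene read strongly from a few oysters and a gene read weakly from many give the same value, and fewer cells of a type cannot be told apart from less RNA per cell.

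The 53 genes higher in the high group sat at a median of 6.88 CPM in that group (quartiles 3.92 and 18.7) and 0.409 CPM in the low group (quartiles 0.30 and 0.857). Their median fold was 16.7 (quartiles 9.34 and 34.5), with genes without a read in the low group counted at their bound. Most were weakly read: 33 of 53 averaged under 10 CPM in the high group, and 2 reached 100 CPM. In the low group 42 averaged under 1 CPM, 39 had at most 30 reads in its 3 libraries together, and 2 had no read there. The 28 genes higher in the low group sat at a median of 1.39 CPM in the high group (quartiles 0.56 and 3.47) and 15.6 CPM in the low group (quartiles 5.72 and 158). Their median fold was 12.5 (quartiles 9.95 and 20.6), and 8 of 28 averaged 100 CPM or more in the low group. In the high group 12 of these 28 averaged under 1 CPM and none was without a read in all 3 high libraries. Near restriction to 1 group thus describes the larger part of the 53 genes but not all of the 81, since Cg29640 still averaged 37.2 CPM in its lower group and Cg19696 averaged 145.5 CPM in its lower group.

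**Figure D1:**
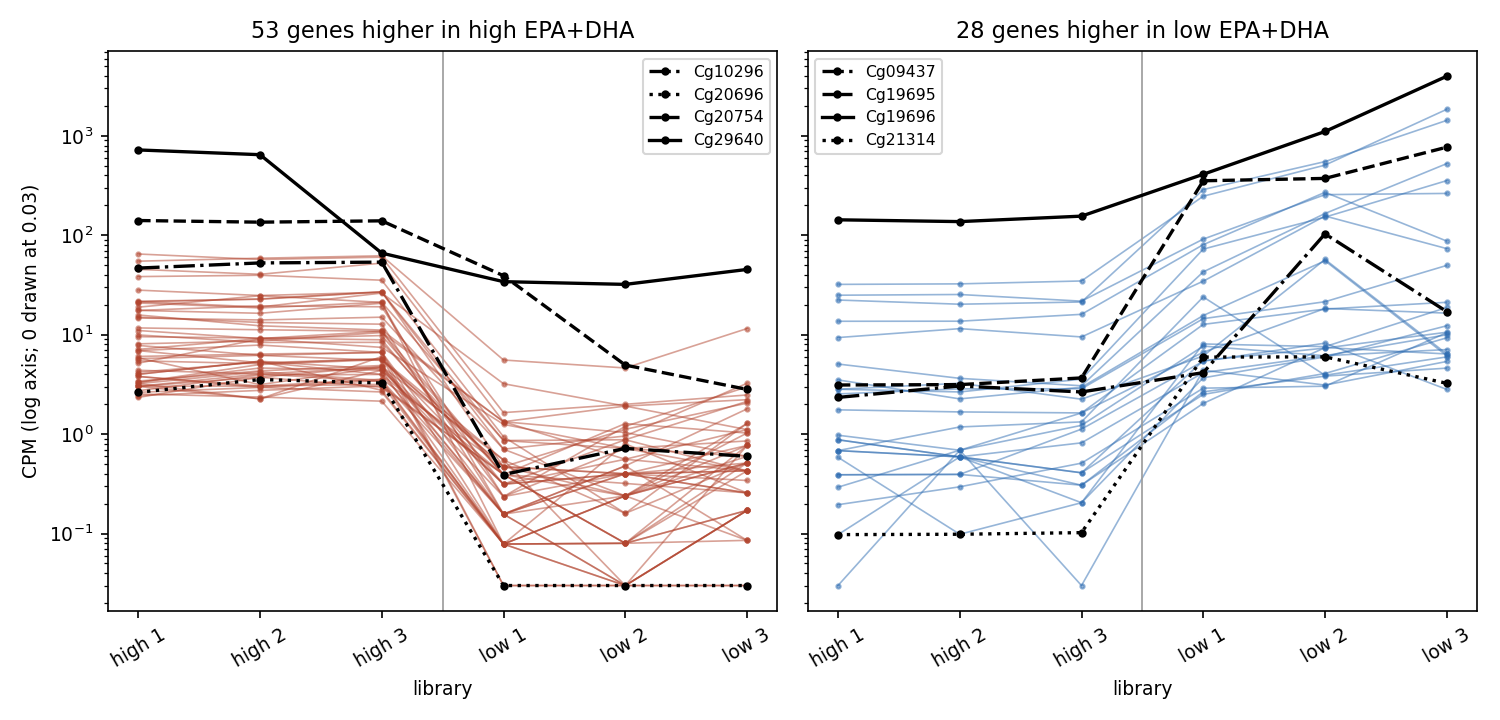
Level of every gene of the set in each library in CPM on a log axis, with genes higher in the high group on the left and genes higher in the low group on the right; each line is 1 gene, black lines are the genes in the legends, and a value of 0 is drawn at 0.03. The red lines run nearly level across the 3 high libraries apart from Cg29640, and the blue lines spread apart across the 3 low libraries.

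Among genes higher in the high group, the clearest separation at a well measured level was that of Cg10296. It had 46.8, 52.8 and 53.7 CPM in high libraries 1, 2 and 3, against 0.392, 0.719 and 0.598 CPM in low libraries 1, 2 and 3, an 89.7-fold difference between group means. Its lowest high library was 65.2 times its highest low library, the widest such gap of the 51 genes that had any low read. Cg10879 had 38.4, 39.7 and 35.3 CPM in the high libraries, against 0.941, 0.160 and 0.513 CPM in the low libraries. This is 70.3-fold, or 112-fold without low library 1. Cg27928 had 20.9, 18.6 and 21.3 CPM in the high libraries and 0.0784, 0.240 and 0.598 CPM in the low libraries, which is 66.3-fold, or 127-fold without low library 3. In all 3 genes the high libraries lay within a narrow band and each low library held 12 reads or fewer.

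Cg27675 and Cg14140 had higher ratios that rest on next to no low reads. For Cg27675 the reads were 33, 43 and 34 over high libraries against 1, 0 and 0 over low libraries, a ratio of summed reads of 135 with an exact 95% interval of 23.7 to 5368. For Cg14140 the reads were 62, 65 and 65 in the high libraries against 0, 0 and 2 in the low libraries, a ratio of 118 (32.1 to 978). These intervals cover counting error only. Cg20696 and Cg25553 had no read in any low library. With 27, 36 and 32 reads in the high libraries, Cg20696 was at least 38.8-fold higher, taking 3 reads over the whole low group as the floor. With 33, 23 and 59 reads there, Cg25553 was at least 47.3-fold higher by the same floor. All 4 genes averaged under 10 CPM in the high group, so the bounds are set by depth.

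The 4 most abundant genes of this direction did not have the highest folds. Cg29640 had 722, 647 and 66.2 CPM in high libraries 1, 2 and 3, against 34.2, 32.1 and 45.4 CPM in low libraries 1, 2 and 3, and its group means of 479 ± 359 and 37.2 ± 7.14 CPM (SD, n = 3 each) differed 12.9-fold. High library 3 held far less of it than high libraries 1 and 2. It was at 1.46 times the highest low library, the narrowest gap of the 53 genes. The ratio of high to low means was 18.4 without high library 3, 9.58 without high library 1 and 10.6 without high library 2. Cg20754 was even across the high libraries, at 141, 136 and 140 CPM, against 39.2, 4.95 and 2.82 CPM in low libraries 1, 2 and 3. Low library 1 alone held most of its low reads: its fold was 8.86 over all libraries and 35.7 without low library 1.

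Cg10290 and Cg08609 followed in abundance. Cg10290 had 64.9, 57.2 and 60.3 CPM in the high libraries and 1.65, 1.996 and 2.48 CPM in the low libraries, a 29.8-fold difference with libraries of each group close together. Cg08609 had 54.9, 58.9 and 62.2 CPM in the high libraries and 5.57, 4.63 and 11.5 CPM in the low libraries. At 8.10-fold it was the gene nearest to the limit from inside. Cg24181 at 8.27-fold, which was 19.8-fold without low library 3, and Cg09760 at 8.39-fold came next. The nearest genes outside were Cg27728 at 7.64-fold, Cg10900 at 7.59-fold and Cg15417 at 7.52-fold. Without low library 3 Cg10900 was 18.3-fold higher in the high group, and without low library 2 Cg15417 was 21.5-fold higher. On the level condition, Cg10877 was just inside with 2.15 CPM in its lowest high library and Cg25499 just outside with 1.97 CPM.

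The folds fell off without a break at the limit in either direction. Of the 53 genes higher in the high group, 28 were at least 16-fold apart, 15 at least 32-fold and 5 at least 64-fold. Of the 28 genes higher in the low group, 9 were at least 16-fold, 6 at least 32-fold and 1 at least 64-fold apart. Lowering the limit to 4-fold would have admitted 138 and 96 genes, and raising it to 16-fold would have left 28 and 9.

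**Figure D2:**
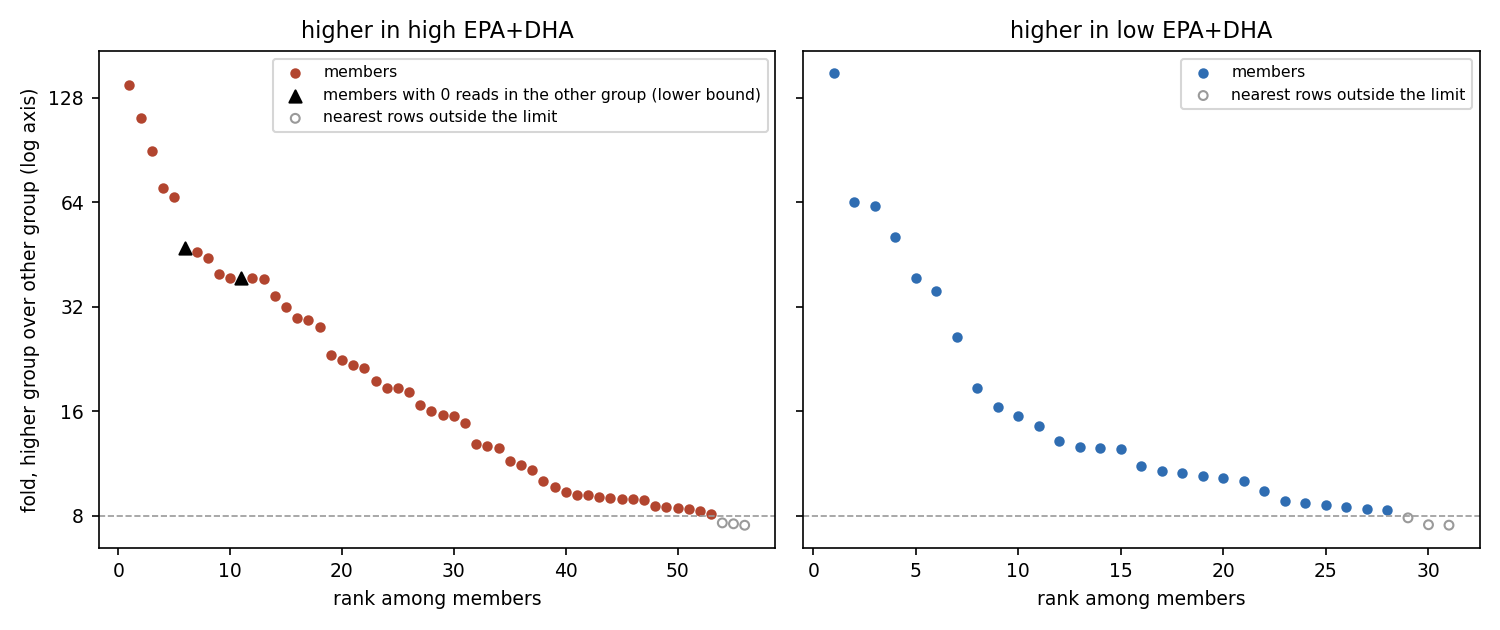
Fold between group means (higher group over the other, log axis) of each gene of the set by rank, with genes higher in the high group on the left and genes higher in the low group on the right. Triangles are lower bounds for the 2 genes without a low read, open circles are the nearest genes under the dashed 8-fold limit, and values decline smoothly through it.

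Among genes higher in the low group, Cg19695 had by far the widest separation. It had 3.12, 3.15 and 3.68 CPM in high libraries 1, 2 and 3, against 354, 374 and 770 CPM in low libraries 1, 2 and 3, with means of 3.32 ± 0.313 and 499 ± 235 CPM (SD, n = 3 each). Its level was 151-fold lower in the high group, a log2 ratio of high to low of -7.23, and 110-fold lower without low library 3. Low libraries 1 and 2 were close to each other, and the lowest of them was 96.2 times the highest high library. Cg13137 had 2.83, 2.66 and 3.58 CPM in the high libraries, against 72.7, 152 and 355 CPM in the low libraries. It averaged 3.02 CPM over high libraries and 193 CPM over low libraries, and without low library 3 it was still 37.3-fold lower in the high group. Cg19699 had 5.07, 3.64 and 3.06 CPM in the high libraries and 42.9, 166 and 526 CPM in the low libraries, 62.4-fold lower in the high group and 26.6-fold lower without low library 3. Setting low library 3 aside narrowed all 3 differences and left the groups wide apart.

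Cg21314 and Cg26158 were separated by about as much at a lower level. Cg21314 had 1 read in each high library, against 76, 75 and 38 reads in low libraries 1, 2 and 3. The ratio of low to high summed reads was 51.4, with an exact 95% interval of 17.3 to 252. It was the one gene of the 5 with the highest folds in this direction that was lowest in low library 3. Cg26158 had 0.585, 0.0984 and 0.204 CPM in the high libraries, against 8.08, 7.59 and 18.8 CPM in the low libraries, a 38.8-fold lower level in the high group that became 75.9-fold without high library 1.

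The 3 most abundant genes of this direction were low, not absent, in the high group. Cg19696 had 143, 137 and 156 CPM in the high libraries, against 411, 1108 and 3984 CPM in the low libraries. Its 12.6-fold lower level in the high group became 5.22-fold without low library 3, which is under the limit of the rule. At a mean of 990 CPM over the 6 libraries it was also the gene nearest to the upper limit on abundance. Cg04373 had 32.1, 32.5 and 34.7 CPM in the high libraries and 247, 508 and 1852 CPM in the low libraries, 26.3-fold lower in the high group and 11.4-fold lower without low library 3. Cg21094 had 22.3, 20.3 and 21.4 CPM in the high libraries and 288, 551.5 and 1433 CPM in the low libraries, 35.5-fold lower in the high group and 19.7-fold lower without low library 3. In each of these genes the 3 low libraries differed by 4.97 to 9.69 times while the 3 high libraries differed by 1.08 to 1.13 times.

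Around the other limits of this direction, Cg06956 at 8.32-fold, Cg01534 at 8.37-fold and Cg06091 at 8.49-fold were just inside, and Cg27057 at 7.90-fold, Cg28334 at 7.55-fold and Cg06538 at 7.52-fold just outside. Of genes that met the fold and gap conditions, 3 under the abundance limit were left out for a low library 3 at least 4 times each other library, and 6 for a mean of 1000 CPM or more. The abundant ones included Cg19979 at 357 CPM in high and 15376 CPM in low pools, Cg19981 at 30.8 and 2206 CPM, and Cg19698 at 216 and 4262 CPM. Without low library 3 the low group still averaged 7380 CPM for Cg19979, 1308 CPM for Cg19981 and 1972 CPM for Cg19698. The set thus leaves out the most abundant genes with this pattern. In the other direction 17 genes were left out because they lie between Cg28971 and Cg29032.

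Summed over its members, each direction took a small share of the reads. The 53 genes higher in the high group summed to 1503, 1424 and 888 CPM in high libraries 1, 2 and 3, against 103, 66.2 and 97.6 CPM in low libraries 1, 2 and 3, a 14.3-fold difference of means. The dip in high library 3 came from Cg29640, which held 48.1%, 45.4% and 7.46% of the sum in the 3 high libraries. Without it the sums were 780, 777 and 822 CPM in the high libraries and 68.5, 34.1 and 52.2 CPM in the low libraries. The 28 genes higher in the low group summed to 276, 271 and 291 CPM in the high libraries, against 1762, 3890 and 9569 CPM in the low libraries. Their sum was 18.2-fold lower in the high group with all libraries and 10.1-fold lower without low library 3. Low library 3 thus held more of them than low libraries 1 and 2 together.

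The 2 directions differed in how evenly their higher group was read. For the 53 genes the highest high library was a median of 1.30 times the lowest one, from 1.04 for Cg20754 to 10.9 for Cg29640, and 2 genes, Cg29640 and Cg25553, differed 2-fold or more. For the 28 genes the highest low library was a median of 3.40 times the lowest one, from 1.63 to 24.9, and 21 genes differed 2-fold or more. On the log2 scale with 0.5 CPM added, the median SD of the 53 genes was 0.17 over high libraries and 0.34 over low libraries, and that of the 28 genes was 0.19 over high libraries and 0.88 over low libraries. The 13597 other Cg genes with a mean of at least 2 CPM had median SDs of 0.15 over high libraries and 0.44 over low libraries. On column totals, the low libraries varied more than the high ones for Cg genes in general. TMM scaling factors were 1.12, 1.27 and 0.81 for low libraries 1, 2 and 3, and 0.947 to 0.961 for the high libraries. How much of this spread comes from scaling was not tested. The members' place beside that background was not tested either.

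The place of the highest low library is given as a description, since the rule used these values. Of the 28 genes, 18 (64.3%) peaked in low library 3, 9 peaked in low library 2 and the remaining 1 peaked in low library 1, and 21 had their lowest level in low library 1. Of the 13597 other Cg genes, 14.8% peaked in low library 3, 57.4% peaked in low library 2 and 27.8% peaked in low library 1. The peaks were read on column totals, without the TMM factors of 1.27 for low library 2 and 0.81 for low library 3. How far the rule itself or the scaling sets these shares was not tested. In the high group the 53 genes were highest in library 1, 2 and 3 in 17, 13 and 23 cases.

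A few genes depended on 1 other low library, and these were picked out once their values were known. Cg09437 had 2.34, 3.05 and 2.66 CPM in the high libraries, against 4.16, 103 and 17.1 CPM in low libraries 1, 2 and 3, and its 15.5-fold lower level in the high group became 3.96-fold without low library 2. Cg01534 had 2.83, 3.25 and 2.25 CPM in the high libraries, against 6.12, 57.2 and 6.41 CPM in the low libraries, 8.37-fold lower in the high group and 2.26-fold lower without low library 2. Cg28907 had 3.51, 2.26 and 2.96 CPM in the high libraries, against 15.6, 55.4 and 6.15 CPM in the low libraries, 8.83-fold lower in the high group and 3.73-fold lower without low library 2. These 3 genes were the members that came under 4-fold without low library 2. Cg23718 had 0.683, 1.18 and 1.33 CPM in the high libraries, against 24.0, 3.91 and 5.98 CPM in the low libraries, 10.6-fold lower in the high group and 4.65-fold lower without low library 1. The low libraries of these genes differed by 6.13 to 24.9 times, although they are described as repeats of 1 mix.

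**Figure D3:**
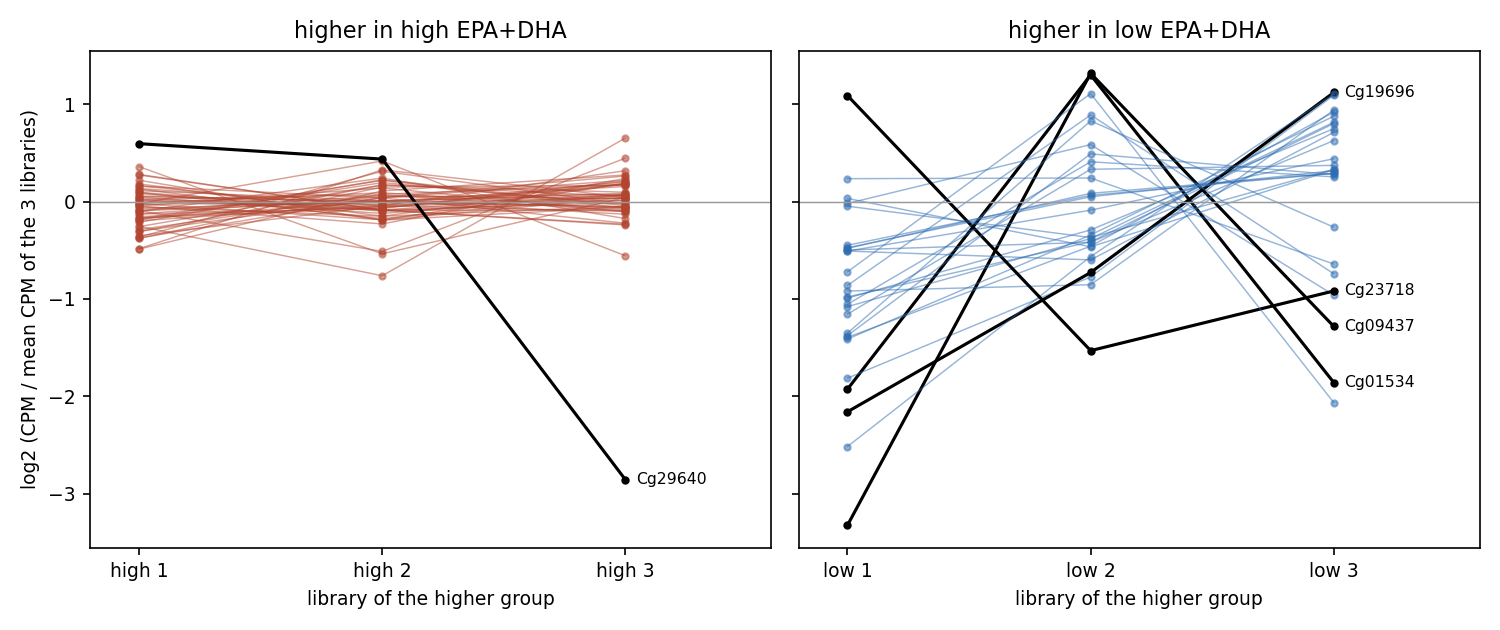
Level in each library of the higher group relative to the gene's own mean over those 3 libraries, on a log2 scale, for genes higher in the high group (left, high libraries) and genes higher in the low group (right, low libraries). Most lines on the left stay near 0, with Cg29640 farthest from it, while on the right 18 of 28 genes peak in low library 3 and Cg09437, Cg01534 and Cg23718 peak sharply in another library.

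Cg29640 stood out among abundant genes for its drop in 1 high library. Of 1062 Cg genes with a mean of at least 100 CPM in the high libraries, 11 had a highest high library at least 2 times the lowest, and 7 at least 8 times. Of those 7, 5 were numbered between Cg28971 and Cg29032, and the others were Cg29640 and Cg17449. Cg17449 had 91.3, 218 and 25.2 CPM in high libraries 1, 2 and 3 and 8.08, 9.10 and 234 CPM in low libraries 1, 2 and 3. High library 3 was the lowest of the high libraries for both, and the 2 genes differed in the low libraries, where low library 3 was far above the others for Cg17449 only.

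Because membership uses all 6 libraries, the rule was also applied to 5 libraries at a time and the chosen genes were read in the library that had been set aside. Of genes chosen as higher in the high group, 53 of 53, 58 of 60 and 57 of 57 lay above every low library in the unused high library 1, 2 or 3. In the unused low library 1, 2 or 3, 53 of 53, 47 of 49 and 69 of 70 lay below every high library. Across all Cg genes of at least 1 CPM, 16.7% to 16.9% lay above every low library in a given high library, and 21.6% to 53.2% lay below every high library in a given low library. The unused high library held a ratio of at least 8 in 85.0% to 86.8% of the genes chosen without it. The ratio to the unused low library 1, 2 or 3 was at least 8 in 73.6%, 79.6% and 55.7% of genes, so the size carried over least in low library 3.

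For genes chosen as higher in the low group, 27 of 27, 28 of 28 and 27 of 27 lay below every low library in the unused high library 1, 2 or 3. In the unused low library 1, 2 or 3, 43 of 44, 19 of 20 and 37 of 44 lay above every high library. Across all Cg genes these shares were 26.2% to 27.6% for a high library, and 55.5%, 63.0% and 23.5% for low libraries 1, 2 and 3. The condition on low library 3 could not be applied where that library was set aside. The ratio itself held less well: it was at least 8 in 34.1%, 70.0% and 45.5% of genes in the unused low library 1, 2 or 3, with medians of 5.74, 10.7 and 6.21. The direction of the separation was thus the same in an unused library for most genes. Its size carried over least in low libraries 1 and 3. In both directions the libraries of the other group still served to choose the genes that were read against them. The shares across all Cg genes involve no such choice, so the comparison with them does not test the separation. The libraries come from the same 2 pools, so this is agreement between libraries and says nothing of other oysters.

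The rule used the number in the identifier to leave out Cg28971 to Cg29032 and in no other way. Of the 53 genes, 8 (15.1%) had another gene of the set and direction at the next or the previous Cg number, and 15 (28.3%) had one within 5 numbers. With the genes left out by number kept in, 21 of 70 had one at the next or the previous number. Of 12210 other Cg genes with at least 2 CPM in every high library, 0.254% and 1.30% had such a neighbour. Of the 28 genes higher in the low group, 2 (7.14%) had a neighbour of their own direction at the next number and 4 (14.3%) within 5 numbers, against 0.207% and 0.872% of 11588 other Cg genes with at least 2 CPM in every low library. Taking genes no more than 10 numbers apart together, a distance chosen after the values were seen, 17 of the 53 genes fell into 7 groups and 6 of the 28 into 2 groups. Whether the numbers follow the order of genes on chromosomes is not given in the sources used here, and neither overlap nor shared reads of neighbours was tested.

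The largest group of genes higher in the high group ran from Cg25488 to Cg25498. Cg25488 had 14.7, 14.1 and 15.0 CPM in the high libraries, against 0.706, 0.958 and 3.25 CPM in the low libraries. The next number, Cg25489, had 9.95, 8.37 and 8.38 CPM in the high libraries and 0.392, 0.240 and 0.513 CPM in the low libraries. Cg25495 had 17.6, 19.5 and 19.1 CPM in the high libraries and 0.235, 1.20 and 2.99 CPM in the low libraries, and Cg25498 had 31, 23 and 43 reads in the high and 1, 0 and 2 reads in the low libraries. The folds were 8.92, 23.3 and 12.7 for the first 3 genes, or 17.6, 28.2 and 26.1 without low library 3, and the ratio of summed reads was 39.6 (exact 95% interval 13.2 to 195) for Cg25498. Its neighbour Cg25499, at 2.62 CPM in high and 0.243 CPM in low pools, was 10.8-fold higher in the high group, or 21.04-fold without low library 2, and missed the set only by its lowest high library. The genes numbered in between were read at most 22 times in a library. Cg25500 was level, at 25.7 CPM in high and 25.8 CPM in low pools.

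Cg24181, Cg24184 and Cg24189 made the other group of more than 2 genes in this direction. Their means were 3.92, 3.48 and 46.2 CPM in the high group, against 0.474, 0.408 and 1.001 CPM in the low group. Cg24188 beside the last had 1.82 CPM in high and 0.167 CPM in low pools, and Cg24190 on its other side had 42.3 CPM in high and 55.3 CPM in low pools. Cg10290 and Cg10296, both described above, lie 6 numbers apart. The 5 genes between them had at most 14 reads in a library. Cg10297 beside Cg10296 went the other way, at 1.36 CPM in high and 2.35 CPM in low pools. Cg10299 after them had 5.65 CPM in high and 0.822 CPM in low pools. Cg10877 and Cg10879 frame Cg10878, which had 3.51 CPM in high and 0.592 CPM in low pools. Adjacent pairs were Cg09760 with Cg09761, Cg20297 with Cg20298, and Cg26984 with Cg26985, with means of 2.75 to 22.3 CPM in the high group. Cg26983 beside Cg26984 was higher in the low group, at 4.52 CPM in high and 10.1 CPM in low pools. So was Cg20294 near Cg20297, at 4.02 CPM in high and 22.0 CPM in low pools.

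The largest group of genes higher in the low group ran from Cg19691 to Cg19699 and held the 2 genes with the widest and the most abundant signal, Cg19695 and Cg19696. Cg19691 had 0.195, 0.295 and 0.511 CPM in the high libraries, against 2.90, 3.03 and 10.5 CPM in the low libraries. Cg19697, which is not in the set, had 681 CPM in high and 3502 CPM in low pools, 5.14-fold lower in the high group and 2.80-fold lower without low library 3. Cg19698, above the abundance limit, was 19.7-fold lower in the high group and 9.13-fold lower without low library 3. Cg19693, left out for its value in low library 3, was 35.4-fold lower and without that library 13.4-fold lower. Cg19700 after them had 1.75 CPM in high and 7.26 CPM in low pools, 4.14-fold lower in the high group. Cg19692 within the stretch did not follow, at 2.61 CPM in high and 3.14 CPM in low pools, and Cg19702 beyond it had 4.49 CPM in high and 2.70 CPM in low pools. All 4 members of the stretch were highest in low library 3 and lowest in low library 1.

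**Figure D4:**
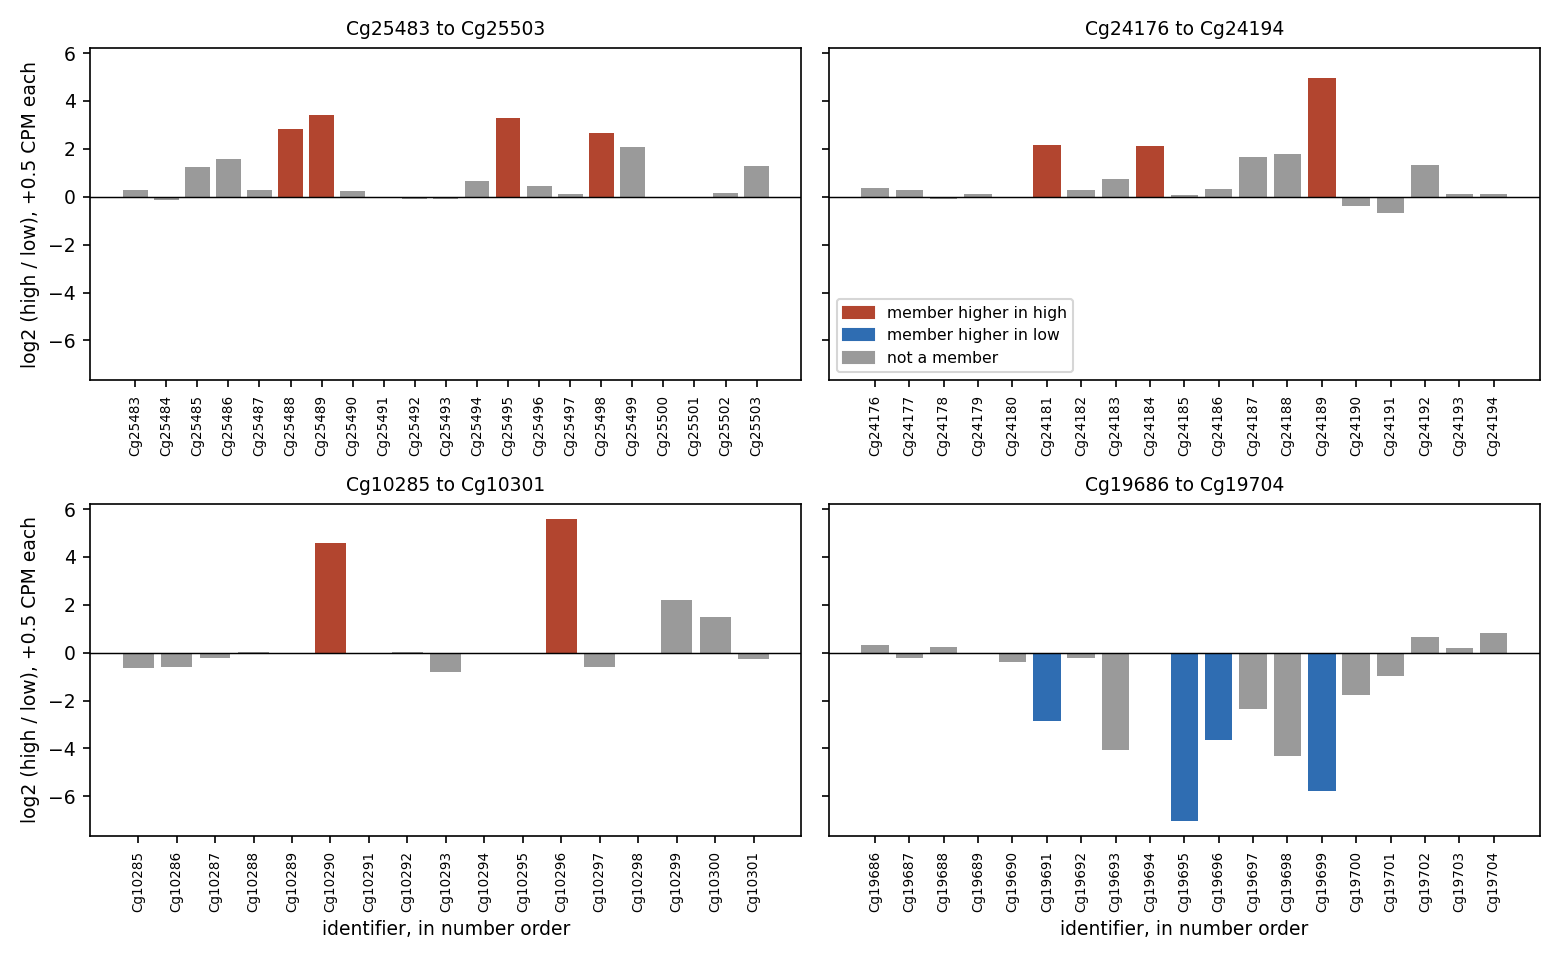
Log2 ratio of high to low group means, with 0.5 CPM added to each, for every Cg gene in 4 stretches of identifiers; red bars are genes of the set higher in the high group, blue bars genes of the set higher in the low group and grey bars other genes. Several grey bars near red ones point up and others point down, such as Cg10293 and Cg10297. Grey bars among the blue ones in the last panel mostly point down, with unread or level genes between.

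Genes outside the set were therefore counted by their distance to it. Of 39 such genes of at least 1 CPM that lie next to a gene higher in the high group, 7 (17.9%) were themselves at least 2-fold higher in the high group without overlap of the libraries. Within 5 numbers it was 22 of 210 (10.5%) and within 10 numbers 33 of 462 (7.14%), where 3.61% of all 15665 Cg genes outside the set met the same condition. Next to a gene higher in the low group, 11 of 36 (30.6%) were at least 2-fold lower in the high group without overlap. These neighbours are not all separate: Cg19697, Cg19698 and Cg19700 lie beside genes of the 1 group from Cg19691 to Cg19699. Cg19698 was outside the set only by the limit on abundance. Within 5 numbers the count was 23 of 150 (15.3%) and within 10 numbers 30 of 272 (11.0%), against 5.36% of all 15665. The share was lower in the wider windows in both directions. Each wider window includes the genes of the narrower ones, so these shares do not show how far from a member the excess reaches. Without low library 3 the share next to a gene higher in the low group was 15 of 36 (41.7%), against 18.8% of all. With TMM-adjusted library sizes, 7 of the 39 and 9 of the 36 neighbours met the condition, against 4.30% and 4.21% of all, a split of 674 genes higher and 660 lower in the high group where column totals gave 566 higher and 839 lower. In the opposite sense, 1 of the 39 and 1 of the 36 neighbours met the condition.

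**Figure D5:**
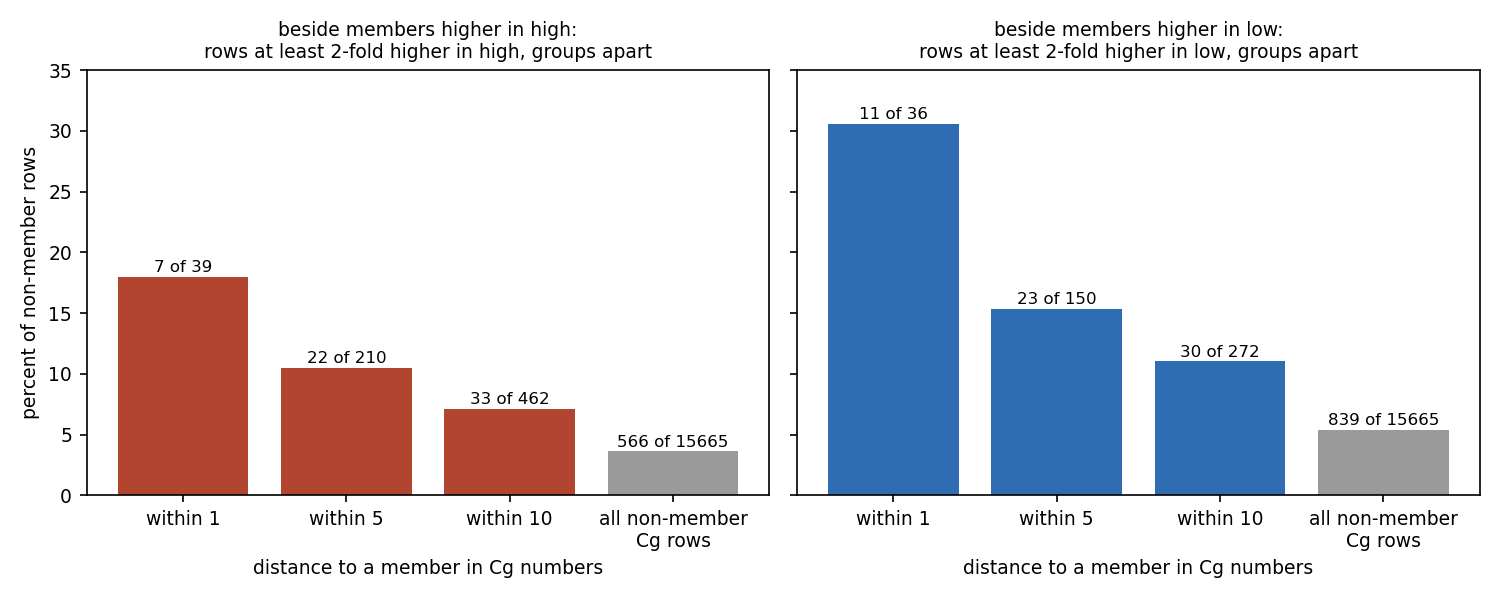
Percent of Cg genes outside the set that were at least 2-fold higher in the same group without overlap, by distance in Cg numbers to a gene of the set, for genes higher in the high group (left) and in the low group (right), with the share of all Cg genes outside the set in grey. Shares are highest next to a member, at 17.9% and 30.6%, against 3.61% and 5.36% for all. Each wider window includes the narrower ones.

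The neighbours that moved alike covered a wide range of levels. Beside genes higher in the high group, Cg00383 next to Cg00384 had 12.7, 13.8 and 15.3 CPM in the high libraries and 6.59, 2.24 and 8.54 CPM in the low libraries. Cg09971 next to Cg09972 had 6.15, 6.30 and 8.28 CPM in the high libraries and 1.33, 1.04 and 2.05 CPM in the low libraries. Beside genes higher in the low group, Cg06092 next to Cg06091 had 28.9, 30.8 and 26.2 CPM in the high libraries and 52.7, 233 and 109 CPM in the low libraries. Cg22484 next to Cg22485 had 53.0, 53.2 and 59.4 CPM in the high libraries and 132, 333 and 147 CPM in the low libraries, and both genes were highest in low library 2. Cg28906 next to Cg28907 had 0.780, 0.984 and 0.715 CPM in the high libraries and 5.41, 21.9 and 1.11 CPM in the low libraries, again highest in low library 2 together with its neighbour. These genes were picked after their values were seen.

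Genes of opposite direction lay within 10 numbers of each other in 1 stretch. Cg21314, higher in the low group, lies within 10 numbers of Cg21311 and Cg21322, which were higher in the high group. Cg21311 had 154, 135 and 125 reads in high libraries 1, 2 and 3, against 2, 0 and 9 reads in those of the low group, and Cg21322 had 59, 63 and 54 reads in the high and 6, 5 and 3 reads in the low libraries. Over 3 to 8 numbers the direction thus changed over and back. No other pair of genes of opposite direction in the set lay within 10 numbers.

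All 81 genes passed the filter on low counts and entered a fit over the whole table with the quasi-likelihood test of edgeR, on the same comparison that chose them. It called 51 of the 53 genes higher in the high group, where 2.58% of all 17809 genes tested were called higher, and 24 of the 28 lower in the high group, where 1.66% were called lower. With any 1 high library left out the calls came to 22 to 27 of the 53 and 2 to 3 of the 28. Among all genes tested, those fits called only 53 to 78 higher and 2 to 3 lower. With any 1 low library left out the calls came to 43 to 51 of the 53 and 20 to 26 of the 28. Among all genes tested, 191 were then called higher and 161 lower without low library 1. The counts were 335 and 240 without low library 2, and 2809 and 2586 without low library 3. Limma-voom called 52 of the 53 and 14 of the 28, and 500 higher and 210 lower among all genes tested. Nothing is read from these counts, since the rule and the test use the same contrast. Cg20754 and Cg24181 of the first direction and Cg01534, Cg06898, Cg09437 and Cg19696 of the second were not called. Cg06898 had 0, 7 and 0 reads in high libraries 1, 2 and 3, against 56, 39 and 63 reads in low libraries 1, 2 and 3. The other 5 had either 1 library far from the rest of its group or a fold close to the limit. Genes that were called, such as Cg29640 and Cg08609, had these features too. Why some genes were not called was not tested.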

How the data were processed

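The authors deposited raw read counts per gene for 6 mantle libraries, and these whole numbers were used as deposited. Per the labels' protocols, poly(A) RNA was captured, fragmented and amplified by PCR. The sources used here do not name an aligner, counting tool, strand setting, build or annotation. The labels name the high libraries with the letter G while the table heads their columns with H, which is the series' letter for that group, so these columns rest on that letter and the number in the title. The table held 0 columns of other samples.

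The members, lists and tests were chosen with earlier results of these data known. CPM used column totals. Named genes were, in each direction, the 5 with the highest level and the 5 with the highest fold, genes without reads in the other group, genes nearest the limits, and genes at neighbouring Cg numbers; the rest were chosen after their values were seen. Levels are not divided by gene length, so order by CPM is order by reads. The whole table was fitted with edgeR 4.0.16 (robust quasi-likelihood, TMM, filterByExpr, R 4.3.3) with Benjamini-Hochberg adjustment and a threshold of 0.05, and tested on simulated data. Alternatives were other limits, other scalings, no filter, limma-voom (limma 3.58.1), DESeq2 1.42.0, each library left out, and a replicate block. Intervals and floors (3 reads over a group) cover counting error only.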

Additional observations from a re-analysis of the deposited data

How the results depend on the processing

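The number of genes higher in the high group was 138 at a 4-fold and 28 at a 16-fold limit, and 31 with at least 5 CPM. Leaving out 1 library gave 49 to 70. The number higher in the low group was 96 at 4-fold, 9 at 16-fold, 48 with at least 1 CPM, 17 with at least 5 CPM and 18 with TMM-adjusted library sizes. Of those 18, 17 were among the 28. Of the 11 genes lost, 5 then had a low library 3 at least 4 times each other library and 5 fell under 8-fold. Leaving out 1 library gave 20 (without low library 2) to 44 (without low library 1 or 3). TMM moved the median log2 ratio of Cg genes from -0.23 to -0.08. The TMM factors were 1.12, 1.27 and 0.81 for low libraries 1, 2 and 3, and 0.947 to 0.961 for the high libraries. Next to genes higher in the low group, 9 of 36 other genes moved the same way with TMM, and 11 to 15 with 1 library left out. Next to genes higher in the high group it was 7 with TMM and 7 to 8 with 1 library left out. Neighbours within 5 and 10 numbers were 15 and 17 for genes higher in the high group and 4 and 6 for the others, and with the left-out span kept in 21 of 70 genes higher in the high group had a neighbour at the next number. With 2 CPM added, the median SD of genes higher in the high group among the low libraries was 0.15, and that of genes higher in the low group among the high libraries was 0.12. Limma-voom called 14 genes of the set lower, where it called 210 lower over the whole table. Leaving out 1 library gave 22 to 51 called higher and 2 to 26 called lower, with the lowest counts without a high library. Calls over the whole table changed as well, to 53 to 78 higher and 2 to 3 lower without a high library. Without low library 3 they were 2809 higher and 2586 lower. The cause was not tested. The replicate block called 52 higher and 26 lower, where the whole table had 472 and 276. The deviations of same-numbered libraries correlated at 0.0575, 0.0530 and 0.163, too little to treat equal numbers as pairs.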
